A study of Drosophila melanogaster with 8 samples.

Results

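M12–13 is the hindmost of the 8 subsections into which the midgut of *D. melanogaster* larvae, feeding and in the third instar, was cut for RNA sequencing, and 1 of the 8 libraries. Its expression values were set against those of the other 7 subsections, which from back to front are M10–11 and M9 of the posterior midgut, M7–8 and M6 of the middle midgut, and M3–5, M2 and M1 of the anterior midgut. The deposited table holds 14207 named entries, nearly all of them genes, and 6315 of them passed the expression limit of the study's methods. That limit asks for more than 5 FPKM in at least 1 subsection or for a mean over the 8 of more than 3. FPKM is the number of sequenced fragments scaled for exon length and for the depth of the library, so it is a level per unit of length and can be compared between genes. The labels name *w*1118 as the strain of every library. According to the study's methods the larvae were progeny of a cross between flies with GAL4 under the *Cyp4d2* promoter and flies with a nuclear GFP under UAS control, and the fluorescence guided the cuts, so every library comes from transgenic larvae of the same cross. M12–13 is among the compartments in which that GAL4 line is active. Tissue of many larvae was pooled for each library, and no subsection was sampled again, so no test was made and no value carries an error over larvae.

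The larval midgut is a tube of absorptive and secretory cells, with scattered endocrine cells and an outer layer of visceral muscle. Its anterior part secretes digestive enzymes into the food, its middle part contains acid- and copper-handling cells, and its posterior part is long and takes up nutrients. The hindmost end adjoins the junction with the hindgut and the Malpighian tubules, where the gut changes from endoderm to ectoderm.

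For each gene the difference is log2(FPKM + 1) in M12–13 minus the mean of log2(FPKM + 1) over the other 7 subsections. A gene is called raised at a difference of at least 2, which is 4-fold on FPKM + 1, and reduced at a difference of −2 or less. Because 1 is added, the difference understates the fold of genes with low FPKM. By this rule 185 genes were raised in M12–13 (2.93% of the 6315) and 170 were reduced (2.69%), while the median difference over all genes was −0.03, with 3045 genes (48.2%) above 0. The weakest raised genes were *CG7298* and *CG13202*, both at 2.01, and just outside lay *CG5853* at 1.998 and *CG11284* (*CAH3*) at 1.99. On the other side *CG13936* (*CNMa*) and *CG10959* were inside at −2.02, and *CG10562* and *CG13658* outside at −1.97. Genes carry the symbols of the deposited table, followed in parentheses by the present symbol where the name has changed.

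**Figure D1:**
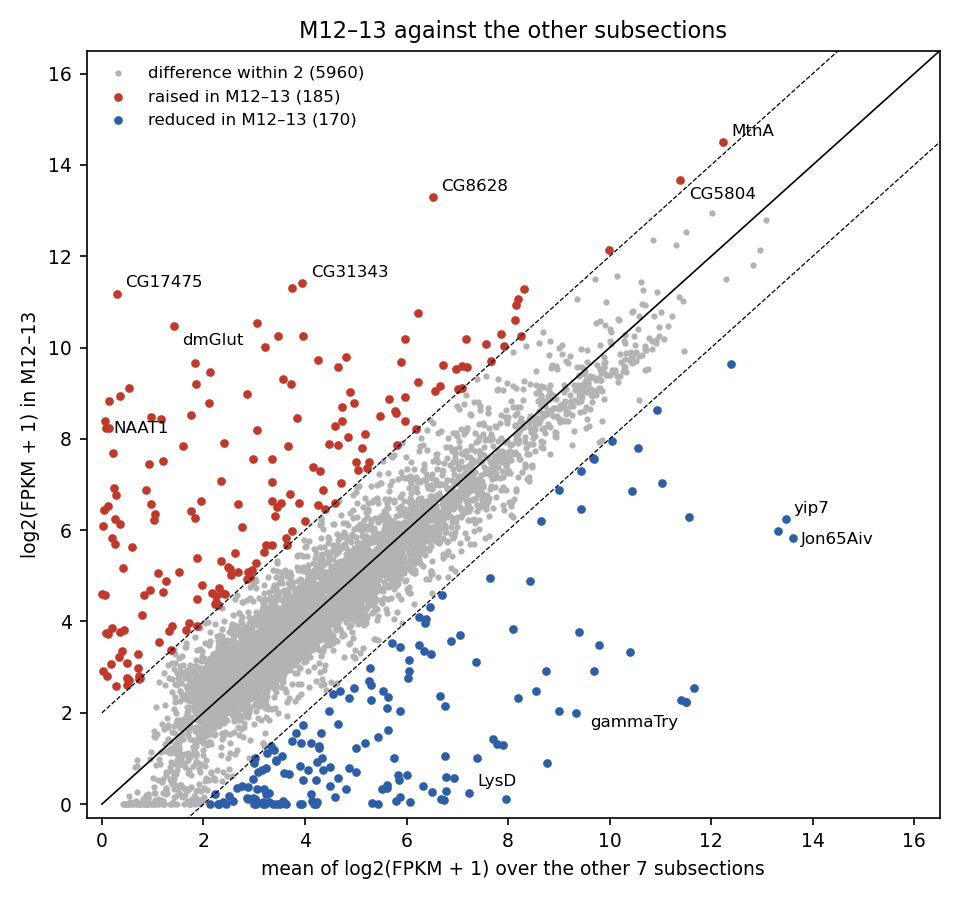
Each point is 1 of the 6315 genes past the expression limit, with log2(FPKM + 1) in M12–13 on the vertical axis and the mean of log2(FPKM + 1) over the other 7 subsections on the horizontal axis, a solid line at equal values and dashed lines at a difference of 2 either way. The 185 raised genes (red) reach *CG17475* at a difference of 10.89, and the 170 reduced genes (blue) reach *gammaTry* at −9.26.

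As a library M12–13 had the lowest summed FPKM of the 8, 542365, against 676723 in M10–11, 882431 in M9 and more than in M9 in each of M3–5, M2 and M1. The authors scaled each library by its upper quartile, which leaves the sums free to differ. The 10 genes with the highest FPKM held 15.9% of the sum in M12–13 and between 23.0% and 40.5% elsewhere. M6 stands apart from the other libraries. The study's methods describe its RNA as prone to degradation and its sequencing as shallower, and its median ratio to the geometric mean over the libraries was 0.774, against 0.994 to 1.08 in the rest. Without M6, 153 of the 185 raised genes and 158 of the 170 reduced genes were still called. Rescaling each library to the same sum moves the median difference of all genes by 0.87, and 457 genes are then raised and 126 reduced, so that raised genes make up 78.4% of the calls, compared with 52.1% as deposited. Differences are therefore to be read relative to the median of all genes. The difference also followed transcript length. Across 5857 genes with a mean above 3 FPKM, which are not independent replicates, Spearman's rho between length and the difference was 0.52, and the median difference was 0.72 for transcripts above 5000 nt but −0.46 for those up to 500 nt. Against M10–11 alone the same rho was −0.15. The raised genes had a median length of 1804 nt and the reduced genes of 1107 nt, against 1704 nt for all genes. With the length trend removed, 166 of the 181 raised genes with a known length and 153 of 169 reduced genes were still past 2. Each value in M12–13 has a 95% interval from the authors' model whose lower bound is 0 for every gene, and for the 30 most raised genes the upper bound was a median of 2.76 times the FPKM (2.23 to 49.2). A value listed at 0 may be a failed estimate, because the mitochondrial gene *mt:CoI* is listed at 0 in M10–11 and *mt:CoII* at 0 in M6. For neither gene is the deposited status of the estimate OK in every library. The hindgut genes *en* and *Dr*, listed at 0 in M12–13, have status OK in every library.

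The 3 marker genes of M12–13 each had their highest level there. *cad*, which encodes the caudal homeodomain factor of the posterior gut, had 40.7 FPKM in M12–13, against 26.6 in M10–11, 25.1 in M9, 9.90 in M7–8 and at most 0.06 in M6, M3–5, M2 and M1. Its difference of 3.51 therefore marks the whole posterior midgut, with M12–13 highest. *Ast* (*AstA*), the precursor of the allatostatin A peptides of endocrine cells, had 55.9 FPKM in M12–13, 1.12 in M10–11, 0.17 in M9, and at most 0.05 in the other 5, a difference of 5.63. *Tk*, the tachykinin precursor, had 16.55 FPKM in M12–13, against 5.472 in M10–11, 4.12 in M9, 0.31 in M7–8 and at most 0.05 farther forward, a difference of 3.34. Of the 3 markers only *Ast* was also past 2 above every other subsection.

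Tissues that join or surround the hind end were looked for by their own markers. Of 8 Malpighian tubule genes only *tsh* passed the expression limit, at 0.62 FPKM in M12–13 and up to 18.5 FPKM in M7–8. The tubule gene *Uro* (urate oxidase) had 0.64 FPKM, *ZnT35C* 0.17 and *CG2187* 0.15 in M12–13, and the 8 genes summed to 1.7 FPKM there and to between 0.4 and 18.6 in the others. Among 5 hindgut genes *byn*, which specifies the hindgut, had 0.05 FPKM in M12–13, and *en* and *Dr* are listed at 0, whereas *drm* and *bowl* were raised. The 10 visceral muscle genes all passed the limit and none was raised. Their median difference was 1.02, and 7 of them were highest in M12–13, where 10.8% of all genes were highest. Their sum was 2437.6 FPKM in M12–13 and between 798.6 and 2714.3 in the others. Myosin heavy chain, *Mhc*, had 123 FPKM in M12–13, against 54.8 in M10–11, 52.7 in M9, 79.5 in M7–8, 15.1 in M6, 50.4 in M3–5, 30.5 in M2 and 21.6 in M1. Fat body genes summed to 2.5 FPKM, hemocyte genes to 0.1 and neuronal genes to 2.0 in M12–13. The part of muscle in the results was not tested. With 1 bulk library per subsection, fewer cells of a type and less RNA per cell cannot be told apart.

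M12–13 was the highest of the 8 subsections in 681 of all 6315 genes (10.8%) and in 145 of the 185 raised genes. Another 17 raised genes were highest in M10–11, 10 in M9, and 13 outside the posterior midgut. Among the 145, M10–11 was the second highest in 76. FPKM climbed stepwise over the last 3 subsections, with M12–13 above M10–11 and M10–11 above M9, in 121 of the 185 raised genes (65.4%), and in 1903 of all genes (30.1%). The call itself favors that order, and it favors M12–13 as the highest subsection of a raised gene. A stricter rule, 2 above every single other subsection, was met by 63 genes (0.998%). By the same rule 50 genes stood out in M6, the library of lower depth, 34 in M1, 21 in M7–8, and between 5 and 14 in each of M10–11, M9, M3–5 and M2. In 25 raised genes all of the other 7 subsections were below 1 FPKM.

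Across genes M12–13 was most like its neighbor. Spearman's rho over the 6315 genes was 0.92 with M10–11, 0.87 with M9 and 0.80 with M7–8, and lay between 0.68 and 0.73 with M6, M3–5, M2 and M1. The raised genes held 20.8% of the summed FPKM in M12–13, 6.78% in M10–11, 3.21% in M9, 6.49% in M7–8, 7.78% in M6, 4.01% in M3–5, 3.40% in M2 and 1.999% in M1. The median raised gene had 116 FPKM in M12–13, 23.9 in M10–11, 9.38 in M9 and at most 5.48 farther forward. The reduced genes held 0.636% of the sum in M12–13, 3.12% in M10–11 and 6.196% in M9, against 22.5% to 48.1% in the middle and anterior midgut. The same values chose the raised and reduced genes, so the contrast of M12–13 with the others in these shares and medians is built into the call. Of the 185 raised genes 70 belong to a gene list used here, as do 62 of the 170 reduced genes and 442 of all 6315. The lists were chosen with earlier results of these data known, so no enrichment can be read from these counts.

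**Figure D2:**
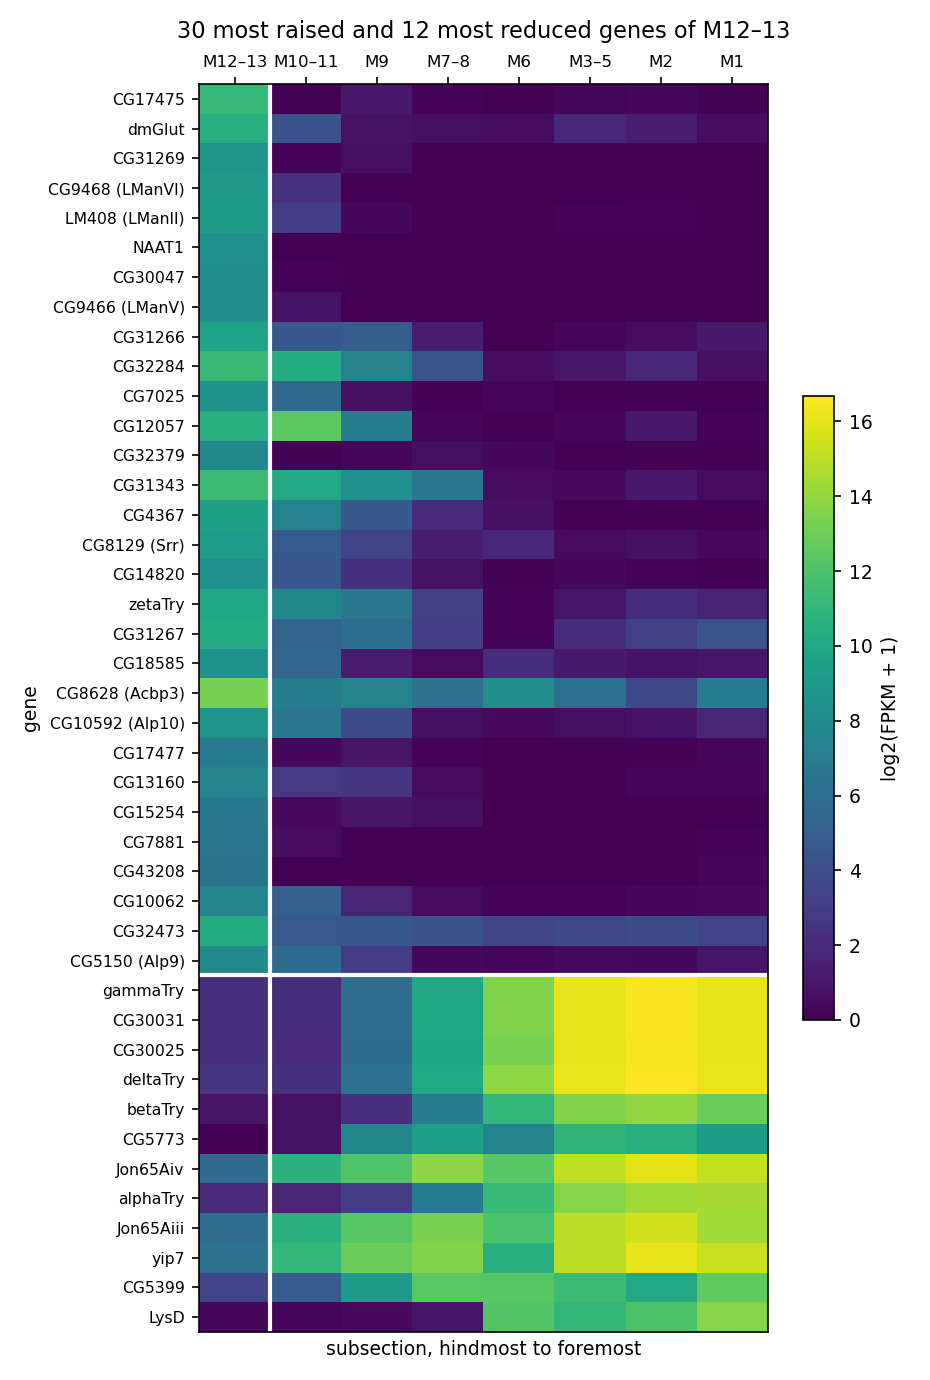
Colors give log2(FPKM + 1) for the 30 most raised genes (upper block) and the 12 most reduced genes (lower block) in the 8 subsections, ordered from M12–13 on the left to M1 on the right. Most raised genes are bright in M12–13 and dark from M9 forward, while *CG12057*, *CG31343* and *CG32284* are also bright in M10–11, and the reduced trypsin genes are dark in both M12–13 and M10–11.

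Among the gene lists the trypsin-like serine proteases, named for endopeptidases that cut after basic residues, had the most raised genes, and they were split. Of 26 past the limit 11 were raised, 10 were reduced, and 10 were highest in M12–13, with a median difference of 0.72. Counts of this and every later list stand beside shares over all genes of 2.93% raised, 2.69% reduced and 10.8% highest in M12–13. The list shares *Jon65Aiv* with the Jonah list described further on and also holds *yip7*, both reduced. The most raised gene of all was *CG17475* (FBgn0038481; chromosome 3R, 12955137 to 12956148 on FlyBase release 5), with 2317 FPKM in M12–13 and 1.15 FPKM in M9, its next highest subsection. The remaining subsections had at most 0.26 FPKM, so its level in M12–13 was 2008 times that of any other.

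*CG17475* lies in a row of 7 serine protease genes on chromosome 3R (12951810 to 12961005), all 7 of which were raised. *CG31267* had 1211 FPKM in M12–13, 38.8 in M10–11, 64.7 in M9, 7.53 in M7–8, 0.13 in M6, 3.42 in M3–5, 8.08 in M2 and 18.4 in M1 (difference 6.78). *CG31266* had 812 FPKM in M12–13, 22.1 in M10–11, 29.8 in M9 and at most 1.51 elsewhere (7.84). *CG31269* had 453 FPKM in M12–13 and at most 0.52 in any other subsection (8.69). The row was not uniform. *CG17477* was as restricted as *CG31269*, with 120.0 FPKM in M12–13 and at most 0.82 elsewhere (6.68). *CG31265* had 506 FPKM in M12–13 but 482 in M9, with 40.9 in M10–11 and 25.5 in M7–8 between and beside them (6.12). *CG4053* had 241 FPKM in M12–13, 59.0 in M10–11, 111 in M9 and 3.90 in M7–8 (5.52). In M6 all 7 were at most 0.13 FPKM.

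The trypsin locus on chromosome 2R showed both directions within 14 neighboring genes, of which 5 were raised and 8 reduced. *zetaTry* had 1030 FPKM in M12–13, 201 in M10–11, 98.6 in M9, 7.95 in M7–8, 0.12 in M6, 1.01 in M3–5, 3.48 in M2 and 2.22 in M1, a difference of 6.80. *iotaTry* had 440 FPKM in M12–13, 263 in M10–11 and between 2.76 and 78.5 in the others (3.82), and *etaTry* had 337 FPKM in M12–13, 229 in M10–11 and between 4.54 and 193 in the others (2.44). *lambdaTry* was raised at 2.03, although M10–11 was higher, with 297 FPKM in M12–13 and 659 in M10–11. The fifth raised gene, *CG13202*, whose role is not given in the sources used here, had 5.65 FPKM in M12–13 and at most 3.07 elsewhere.

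The reduced trypsins of that locus are those of the anterior midgut. *gammaTry* had 3.73 FPKM in M12–13, 3.61 in M10–11, 60.4 in M9, 980 in M7–8, 11948 in M6, 72151 in M3–5, 100132 in M2 and 73047 in M1 (−9.26). *deltaTry*, *CG30025* and *CG30031* are near-identical copies of *gammaTry* between which short reads may be divided, so their separate values are uncertain. Summed, the 4 copies had 16.1 FPKM in M12–13, 14.2 in M10–11, 256 in M9, 4038 in M7–8, 48800 in M6, 286207 in M3–5, 397807 in M2 and 289846 in M1. *alphaTry*, *betaTry*, *epsilonTry* and *thetaTry* had between 0.26 and 2.97 FPKM in M12–13 and differences of −5.18 to −7.87. *kappaTry*, the one gene of the locus called neither way, had 635 FPKM in M12–13, 479 in M10–11 and 1446 in M2 (1.504).

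**Figure D3:**
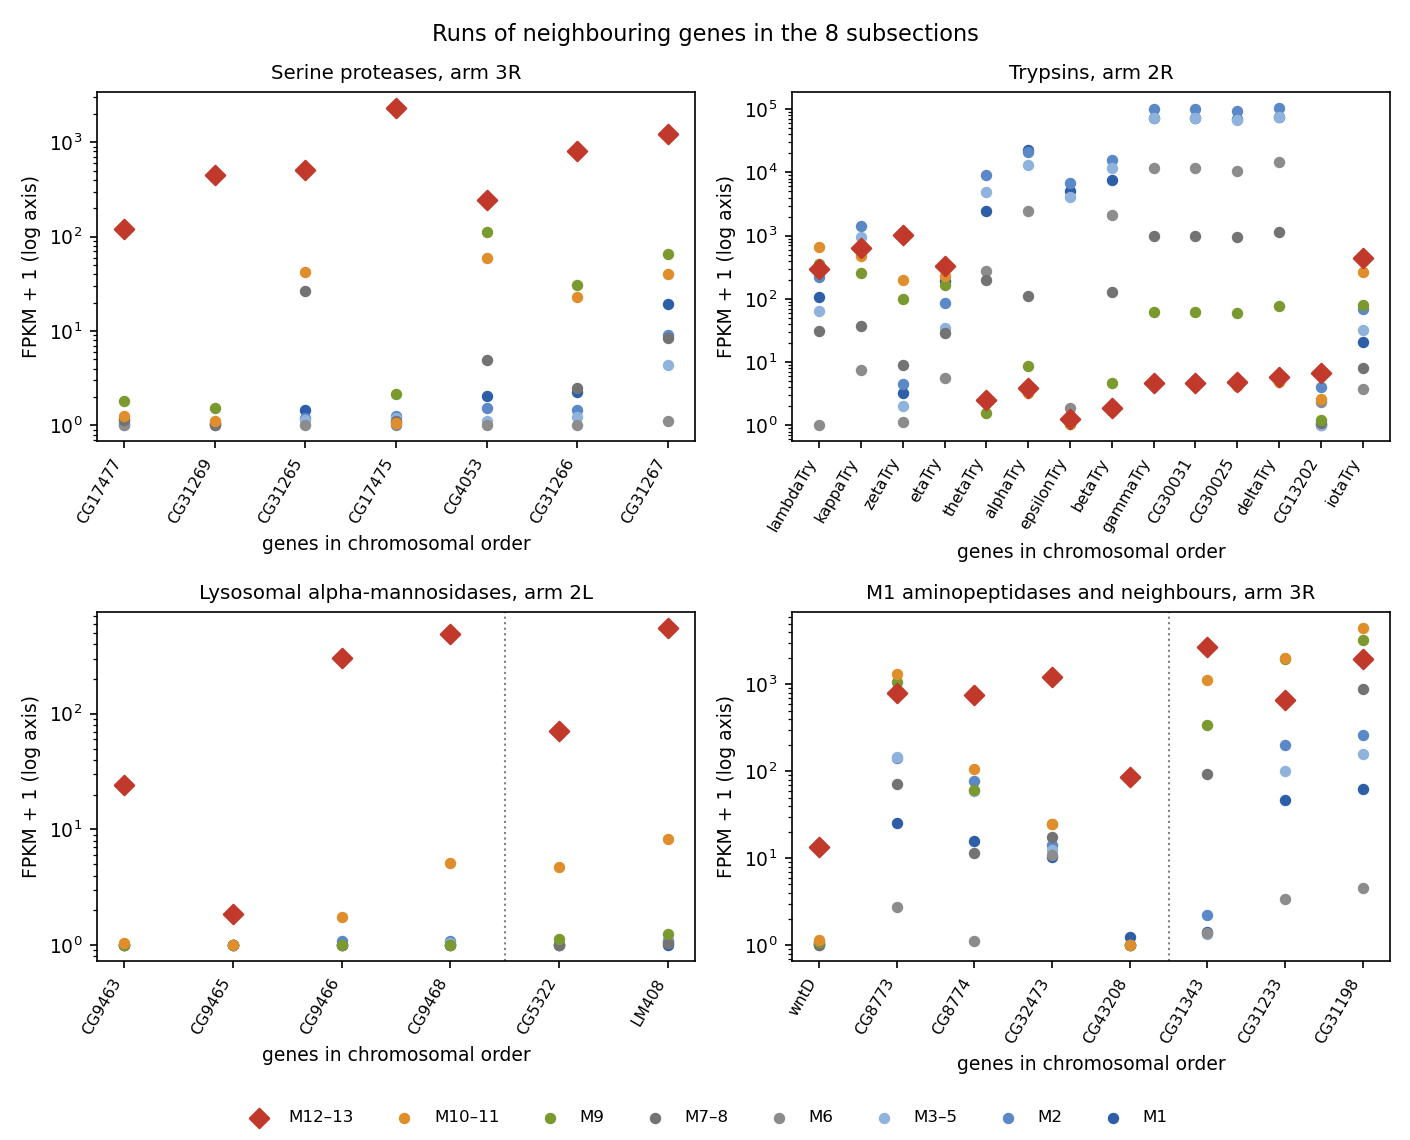
FPKM + 1 on a log axis for the genes of 4 chromosomal neighborhoods in chromosomal order, with M12–13 as red diamonds and the other 7 subsections as circles; dotted lines separate 2 runs of the same family. M12–13 is the highest point of all 7 serine proteases on 3R and of all 6 mannosidases on 2L, while the 2R trypsins hold 8 genes in which it lies among the lowest and 3 aminopeptidases on 3R (*CG8773*, *CG31233* and *CG31198*) have their highest point in M10–11.

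The Jonah proteases, chymotrypsin-like digestive enzymes, were a group without a raised gene. All 16 passed the limit, 4 were reduced and none was highest in M12–13. Summed over the family, FPKM was 4765 in M12–13, 107105 in M10–11, 313051 in M9, 133808 in M7–8, 11525 in M6, 66709 in M3–5, 114688 in M2 and 63548 in M1. Set against the mean of the 7 the median difference was −0.46, whereas against M10–11 alone it was −4.32. Rescaling libraries to the same sum turns the −0.46 to 0.39, but it moves the median of all genes alike, by 0.87. Less that shift the rescaled Jonah median was −0.48. With the length trend removed from the deposited values, the Jonah median was −0.09. *Jon65Aiv*, the most reduced Jonah gene, had 55.9 FPKM in M12–13, 1663 in M10–11, 4626 in M9, 14215 in M7–8, 5226 in M6, 34507 in M3–5, 64524 in M2 and 36235 in M1 (−7.77). *Jon65Aiii* had 62.6 FPKM in M12–13 and at least 1621 in every other subsection (−7.32), and the related *yip7* had 74.3 FPKM in M12–13 and at least 1450 in the others (−7.23). *Jon99Ciii*, a Jonah gene of the posterior and middle midgut, had 1488 FPKM in M12–13, 27024 in M10–11, 112430 in M9 and 26419 in M7–8, and its close copy *Jon99Cii* may share its reads.

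Exopeptidases, which release amino acids from the ends of peptides, had raised members in several families. Of 11 metallocarboxypeptidases past the limit 5 were raised and all 5 were highest in M12–13, while 1 was reduced. Summed over the list, FPKM was nonetheless lower than in the neighbors, at 1684 in M12–13, 4623 in M10–11, 14608 in M9 and 25595 in M7–8. It lay between 114 and 296 in the others. *CG7025* had 358 FPKM in M12–13, 51.2 in M10–11, 0.61 in M9 and at most 0.15 elsewhere (7.53). *CG32379* had 205 FPKM in M12–13 and at most 0.50 in any other subsection (7.47). *CG14820* had 346 FPKM in M12–13, 21.7 in M10–11, 4.04 in M9 and at most 0.66 elsewhere (7.27). The other raised members were *CG18585* with 369 FPKM in M12–13 and 41.5 in M10–11 (6.78) and *CG18417* with 116 FPKM in M12–13 and at most 5.14 elsewhere (5.999). Carboxypeptidases of M9 and M7–8 were low instead. *CG17633*, for example, had 165 FPKM in M12–13, 4373 in M10–11, 9152 in M9 and 10375 in M7–8, and the reduced *CG8562* had 18.8 FPKM in M12–13, 1163 in M9 and 2175 in M7–8 (−2.15).

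Membrane aminopeptidases of the M1 family were abundant throughout the posterior midgut. Of 10 past the limit 5 were raised and 3 were highest in M12–13, and the median difference was 2.30, but against M10–11 it was −0.39. *CG31343* had 2721 FPKM in M12–13, 1138 in M10–11, 343 in M9, 91.5 in M7–8, 0.39 in M6, 0.33 in M3–5, 1.21 in M2 and 0.43 in M1 (7.46). *CG32473* had 1224 FPKM in M12–13, 23.9 in M10–11, 23.7 in M9, 16.48 in M7–8, 9.90 in M6, 11.5 in M3–5, 13.3 in M2 and 9.30 in M1 (6.30), so that it was 51.3 times as high as in any other subsection. Its bundle also contains *CG43208* (85.5 FPKM in M12–13, 6.39), and reads of overlapping genes cannot be told apart without strand. *CG8774* had 764 FPKM in M12–13, 107 in M10–11 and at most 75.7 elsewhere (4.94). By contrast *CG31198* had 1965 FPKM in M12–13, 4502 in M10–11 and 3248 in M9 (2.79), and *CG8773* had 790 FPKM in M12–13, 1311 in M10–11 and 1080 in M9 (2.90).

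Astacin-like metalloproteases, a family outside the lists, were named because they form a run of raised genes on chromosome 2L. *CG15254* had 107 FPKM in M12–13 and at most 0.84 in any other subsection (6.48), *CG15253* had 99.0 FPKM in M12–13 and at most 25.5 elsewhere (4.69), and *CG7631* had 632 FPKM in M12–13, 125 in M10–11 and 11.7 in M9 (5.74). Inside the cell, 2 of 7 cytosolic and dipeptide peptidases past the limit were raised. *CG6726* had 133 FPKM in M12–13 and 28.7 in M10–11 (4.72), and *Dip-B*, a dipeptidase, had 530 FPKM in M12–13 and at most 289 elsewhere (2.50).

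**Figure D4:**
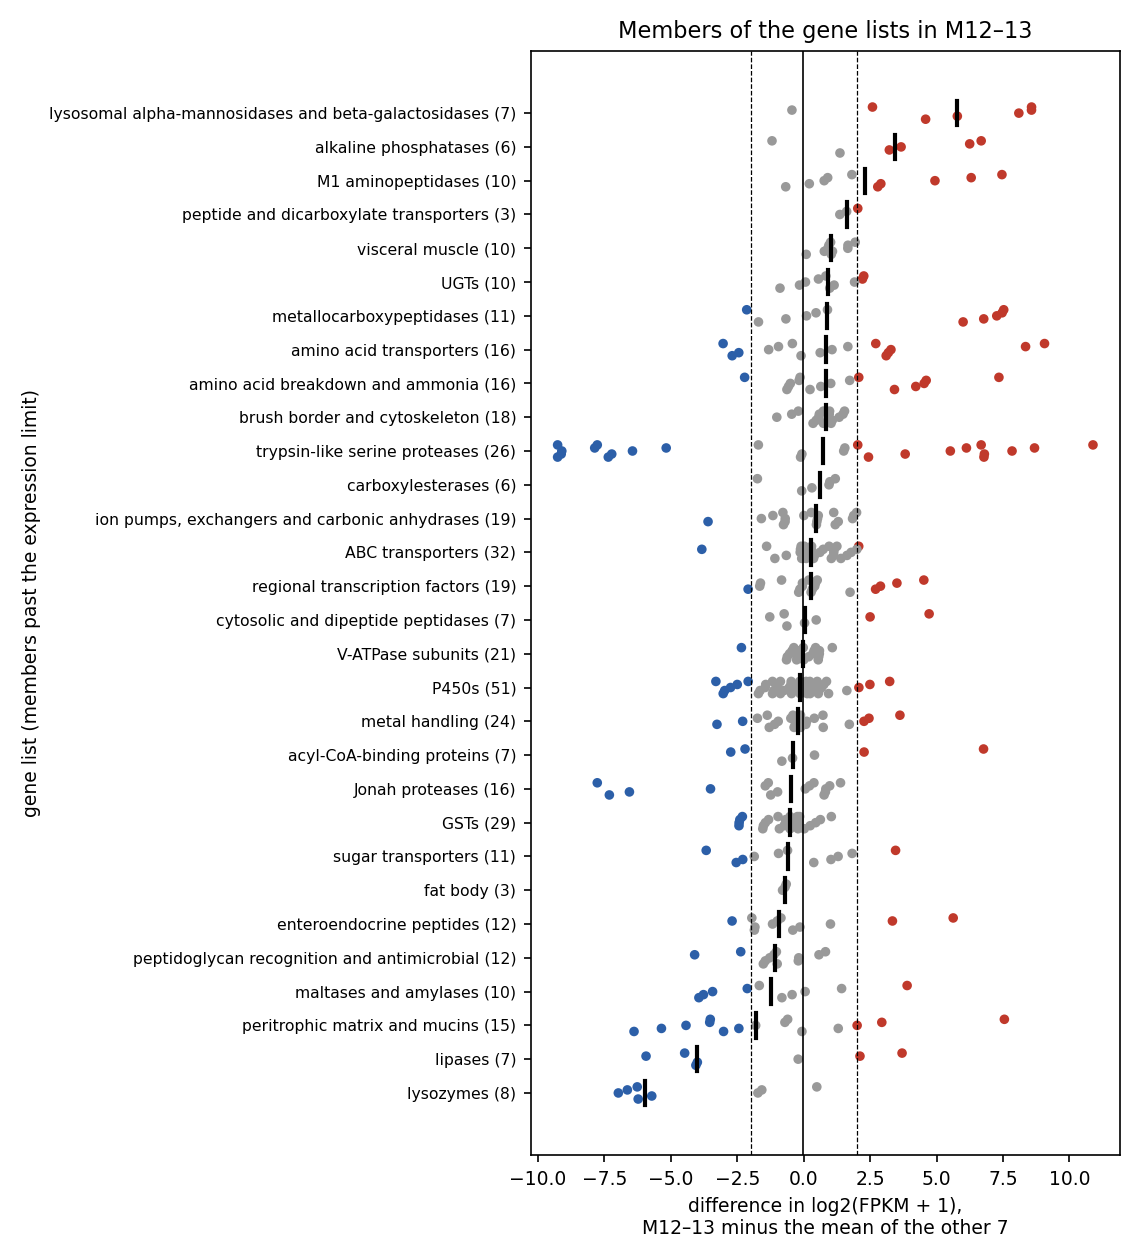
Each point is a member of a gene list that passed the expression limit, placed by its difference in log2(FPKM + 1) between M12–13 and the mean of the other 7 subsections; the number past the limit stands in parentheses, bars mark list medians, the solid line the median of all genes (−0.03) and the dashed lines a difference of 2 either way (raised members red, reduced members blue). Lysosomal mannosidases and galactosidases have the highest median (5.78) and lysozymes the lowest (−5.98), and the trypsin-like proteases spread from −9.26 to 10.89.

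Carriers that bring amino acids into the cell had members found almost wholly in M12–13. Of 16 amino acid transporters past the limit 6 were raised, 3 were reduced and 6 were highest in M12–13, with a median difference of 0.84. With the length trend removed that median was 0.49. *dmGlut* (FBgn0010497; chromosome 2L, 12027438 to 12034122), named for dietary and metabolic glutamate transport, had 1424 FPKM in M12–13, 17.7 in M10–11, 0.72 in M9, 0.53 in M7–8, 0.47 in M6, 2.67 in M3–5, 1.42 in M2 and 0.49 in M1. Its difference of 9.06 was the second largest of all genes, and its level was 80.4 times that in M10–11. *NAAT1* (FBgn0029762; chromosome X, 5299271 to 5304882), a sodium-coupled carrier of essential amino acids, had 337 FPKM in M12–13 and at most 0.08 in any other subsection (8.35).

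The other raised amino acid transporters were less exclusive. *path*, a carrier of the SLC36 family, had 98.5 FPKM in M12–13, 4.87 in M10–11, 6.27 in M9, 18.7 in M7–8, 53.5 in M6, 4.44 in M3–5, 2.58 in M2 and 12.2 in M1 (3.28). *CG9413* (*sbm*), of the SLC7 family, had 261 FPKM in M12–13, 11.9 in M10–11, 8.00 in M9 and 102 in M7–8 (3.18). *CG1698* had 111 FPKM in M12–13 and 110.3 in M1, at opposite ends of the midgut, and 0.18 in M6 (3.10). *gb*, the light subunit of a cystine and glutamate exchanger, was highest in M9, with 95.02 FPKM in M12–13, 127 in M10–11 and 149 in M9 (2.71). The 3 reduced members were *CG8785* with 29.7 FPKM in M12–13, 759 in M10–11 and 599 in M9 (−2.69), the glutamate transporter *Eaat1* with 1.35 FPKM in M12–13 and up to 62.6 in M2 (−3.04), and *CG4991* with 0.73 FPKM in M12–13 and up to 44.6 in M3–5 (−2.44).

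Several enzymes that make or use glutamate, glutamine and other amino acids were raised in M12–13, but not all. Of 16 genes of amino acid breakdown and ammonia handling past the limit 6 were raised, 1 was reduced and 8 were highest in M12–13, and the median difference was 0.83. The 6 include *Sodh-1* and *Pdk*, which act in sugar and pyruvate metabolism. Summed over the list, FPKM was 5150 in M12–13 and between 484 and 1145 in the others. *Gdh*, glutamate dehydrogenase, which releases ammonia from glutamate, had 1169 FPKM in M12–13, 102 in M10–11, 42.6 in M9, 138 in M7–8, 130 in M6, 64.9 in M3–5, 18.6 in M2 and 35.9 in M1 (4.22). *Gs2*, a glutamine synthetase, which fixes ammonia on glutamate, had 1725 FPKM in M12–13, 24.5 in M10–11, 1.67 in M9, 294 in M7–8, 518 in M6, 248 in M3–5, 62.8 in M2 and 77.2 in M1 (4.53). The other isozyme, *Gs1*, was the reduced member, with 2.32 FPKM in M12–13 and 113 in M7–8 (−2.22). *CG8129* (*Srr*), serine racemase, had 589 FPKM in M12–13, 25.4 in M10–11, 9.76 in M9 and at most 2.55 elsewhere (7.35). *CG1640*, an alanine aminotransferase, had 544 FPKM in M12–13 and at most 215 elsewhere (2.07).

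*Sodh-1* encodes a sorbitol dehydrogenase and had 350 FPKM in M12–13 and at most 28.2 elsewhere (4.61), and *Pdk*, pyruvate dehydrogenase kinase, which restrains entry of pyruvate into the mitochondrial cycle, had 237 FPKM in M12–13 and at most 33.0 elsewhere (3.41). *Got1*, aspartate aminotransferase, was highest in M12–13 but below the call, at 420 FPKM and a difference of 1.73. Of the following 4 genes *CG11236* lies in a run of raised genes and the others were chosen after their values were seen. *CG18347* (*GC1*), a mitochondrial glutamate carrier, had 116 FPKM in M12–13 and between 9.78 and 26.1 in the others (2.52). *CG11236* (*Daao2*), a D-amino acid oxidase, had 84.3 FPKM in M12–13, 39.0 in M10–11, 9.38 in M9 and at most 1.80 elsewhere (4.66). *Ggt-1*, a gamma-glutamyl transpeptidase, had 75.1 FPKM in M12–13 and at most 0.42 elsewhere (5.98), and *UK114*, of the imine deaminase family, had 820 FPKM in M12–13 and at most 207 elsewhere (3.80). The estimate for *Ggt-1* did not have status OK in every library, so its values are less certain.

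**Figure D5:**
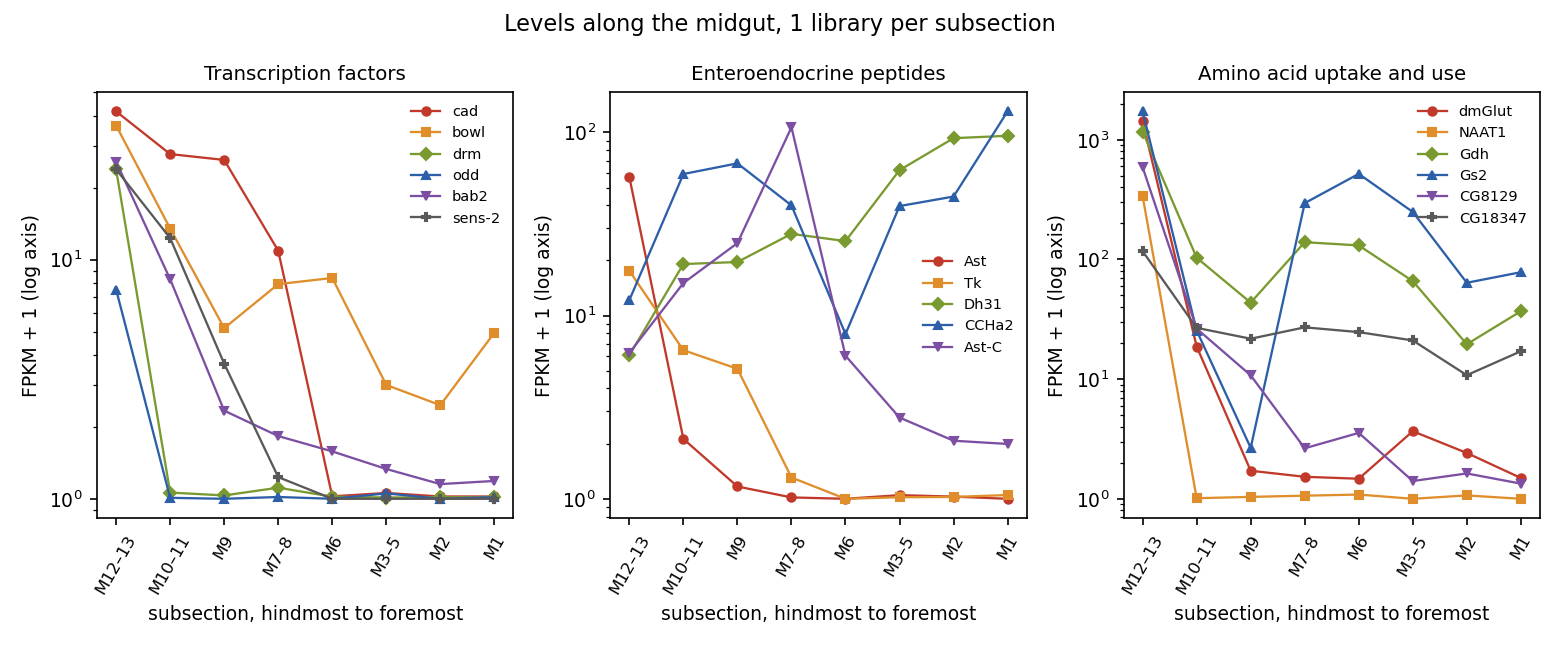
FPKM + 1 on a log axis in the 8 subsections from M12–13 on the left to M1 on the right, for 6 transcription factors, 5 peptide hormones, and 6 genes of amino acid uptake and use, with 1 library per point. *drm*, *odd* and *NAAT1* drop to near 1 in M10–11, whereas *cad*, *sens-2* and *Tk* decline over several subsections and *Dh31* is lowest in M12–13 at 5.08 FPKM.

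Lysosomal alpha-mannosidases, which trim mannose from glycoproteins, had the highest median of the lists. Of 7 mannosidase and beta-galactosidase genes past the limit 6 were raised and the same 6 were highest in M12–13, at 5.78. Summed over the list, FPKM was 1460 in M12–13, 41.2 in M10–11, 26.9 in M9, 25.3 in M7–8, 36.4 in M6, 20.5 in M3–5, 11.1 in M2 and 8.52 in M1. The raised mannosidases lie in 2 runs on chromosome 2L. In the first (8765273 to 8781252) *CG9468* (*LManVI*) had 490.1 FPKM in M12–13, 4.13 in M10–11 and at most 0.08 elsewhere (8.57), *CG9466* (*LManV*) had 300.5 FPKM in M12–13 and at most 0.75 elsewhere (8.10), and *CG9463* (*LManIII*) had 23.2 FPKM in M12–13 and at most 0.04 elsewhere (4.59). *CG9465* (*LManIV*), between them, had 0.86 FPKM in M12–13 and did not pass the limit. In the second (10452677 to 10462472) *LM408* (*LManII*) had 554 FPKM in M12–13, 7.24 in M10–11 and at most 0.26 elsewhere (8.57), and *CG5322* (*LManI*) had 69.3 FPKM in M12–13 and 3.70 in M10–11 (5.78). The beta-galactosidase *Gal* had 8.84 FPKM in M12–13 and 5.89 in M3–5 (2.59).

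Alkaline phosphatases, brush border enzymes that release phosphate, were raised in 4 of 6 genes past the limit. *CG10592* (*Alp10*) had 440.1 FPKM in M12–13, 95.1 in M10–11, 13.5 in M9 and at most 2.42 elsewhere (6.68), and its neighbor on chromosome 3L, *CG5150* (*Alp9*), had 229 FPKM in M12–13, 56.1 in M10–11, 6.55 in M9 and at most 0.93 elsewhere (6.25). The others were shared with the rest of the posterior midgut. *CG1809* (*Alp6*) had 334 FPKM in M12–13, 445 in M10–11, 404 in M9 and 209 in M7–8 (3.66), and *CG10827* (*Alp5*) had 232 FPKM in M12–13, 426 in M10–11, 627 in M9 and 279 in M7–8 (3.22).

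Raised genes also lay side by side outside these families. Raised genes whose deposited loci started within 20 kb of one another formed 27 runs with 73 raised genes, and 9 runs of 3 or more held 37 of them. A deposited locus can span several genes, and 10 of the 73 share theirs with another raised gene, so their distance was not measured. How often other genes form such runs was not tested. A run of 5 on chromosome 2R included *CG30047* with 300.4 FPKM in M12–13 and at most 0.10 elsewhere (8.16), *CG33012* with 67.1 FPKM in M12–13 and at most 0.07 elsewhere (6.06), and *CG13160* with 175 FPKM in M12–13 and at most 5.77 elsewhere (6.536). *CG30049*, which lies inside the same run, was called neither way, with 35.5 FPKM in M12–13 and 44.3 in M10–11 (1.23). Another run held *CG10062* with 181 FPKM in M12–13 and 32.1 in M10–11 (6.31). No role is given for these genes in the sources used here, nor for *CG4367* (709 FPKM in M12–13 and 163 in M10–11, 7.35), *CG7881* (91.1 FPKM in M12–13 and at most 0.48 elsewhere, 6.41) or *CG12057*. The last was highest in M10–11, with 1493 FPKM in M12–13, 5772 in M10–11, 125 in M9 and at most 1.17 elsewhere (7.49).

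Regulators of the hind end had lower levels. Of 19 transcription factors of gut regions past the limit 4 were raised, 1 was reduced and 5 were highest in M12–13, with a median difference of 0.28. With the length trend removed that median was 0.0004. *drm* had 22.8 FPKM in M12–13 and at most 0.11 in any other subsection (4.52), and *odd* had 6.50 FPKM in M12–13 and at most 0.05 elsewhere (2.89). Both encode zinc finger proteins of the odd-skipped family. The third member, *sob*, had 2.75 FPKM in M12–13 and at most 0.07 elsewhere, which was under the expression limit. The fourth, *bowl*, had 35.4 FPKM in M12–13, 12.5 in M10–11, 4.17 in M9, 6.90 in M7–8, 7.38 in M6, 1.99 in M3–5, 1.46 in M2 and 3.95 in M1 (2.70). *hth*, a homeodomain factor, was the reduced member, with 0.87 FPKM in M12–13, 7.88 in M10–11, 19.1 in M9 and 34.0 in M7–8 (−2.09). Factors used along the whole gut did not differ by the call, as *GATAe* had 25.7 FPKM in M12–13 and between 18.2 and 40.5 in the others (−0.05), and *Hnf4* had 23.0 FPKM in M12–13 and between 7.48 and 34.7 in the others (0.51).

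Of 4 further regulators outside that list, *sens-2* and *wntD* lie in runs of raised genes, and *bab2* and *NK7.1* were chosen after their values were seen. *bab2*, a BTB-domain factor, had 24.7 FPKM in M12–13, 7.28 in M10–11, 1.34 in M9 and at most 0.83 elsewhere (3.73). *sens-2*, a zinc finger factor, had 22.9 FPKM in M12–13, 11.3 in M10–11, 2.68 in M9 and at most 0.23 elsewhere (3.75), and *NK7.1*, a homeobox gene, had 9.39 FPKM in M12–13 and at most 4.63 elsewhere (2.02). *wntD*, a secreted Wnt ligand, had 12.5 FPKM in M12–13 and at most 0.14 elsewhere (3.68). Of the Hox genes of the hind body, *abd-A* had 1.87 FPKM in M12–13 and at most 0.99 elsewhere, and *Abd-B* had 0.47 FPKM in M12–13 and at most 0.06 elsewhere, both under the expression limit.

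Among 12 enteroendocrine peptide genes past the limit *Ast* and *Tk* were raised and *Dh31* was reduced, and the median difference was −0.93. Outside that list the peptide hormone gene *CG13936* (*CNMa*) was reduced as well, with 0.16 FPKM in M12–13, 126 in M3–5, 27.3 in M2 and at most 1.23 elsewhere (−2.02). *Dh31* had 5.08 FPKM in M12–13, 18.1 in M10–11, 18.6 in M9, 26.9 in M7–8, 24.5 in M6, 61.2 in M3–5, 92.0 in M2 and 94.8 in M1 (−2.70). *CCHa2* was low in M12–13 without reaching the call, with 11.2 FPKM in M12–13, 58.3 in M10–11, 66.8 in M9, 39.0 in M7–8, 6.93 in M6, 38.6 in M3–5, 43.7 in M2 and 129 in M1 (−1.84). *Ast-C* and *npf*, peptides of the middle midgut in these libraries, had 5.25 and 0.06 FPKM in M12–13, and 106 and 46.2 FPKM in M7–8.

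The gene with the highest FPKM in M12–13 was *MtnA*, a metallothionein that binds copper. It had 23102 FPKM in M12–13, 621 in M10–11, 1225 in M9, 35566 in M7–8, 50388 in M6, 4855 in M3–5, 2612 in M2 and 3366 in M1 (2.27), so it was high in the middle midgut and again at the hind end. The other metallothioneins did not follow it, as *MtnB* had 24.2 FPKM in M12–13, 4387 in M7–8 and 18448 in M6, and *MtnC* was reduced, with 5.81 FPKM in M12–13 and 2912 in M6 (−3.27). Of 24 metal-handling genes past the limit 3 were raised and 2 were reduced. *Mco1*, a multicopper oxidase, had 12.3 FPKM in M12–13 and at most 0.22 elsewhere (3.62), and *CG10006* (*Zip71B*), a zinc transporter, had 23.6 FPKM in M12–13 and 11.9 in M10–11 (2.46). *Fer1HCH*, the ferritin heavy chain, was the other reduced member, with 397 FPKM in M12–13, 938 in M10–11 and 7035 in M7–8 (−2.30).

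Next in level stood 2 genes of acyl-CoA-binding proteins, carriers of activated fatty acids. *CG5804* (*Acbp5*) had 12974 FPKM in M12–13, 6704 in M10–11, 5799 in M9, 641 in M7–8, 66.6 in M6, 7052 in M3–5, 19936 in M2 and 4254 in M1 (2.27). *CG8628* (*Acbp3*) had 9992 FPKM in M12–13, 133 in M10–11, 175 in M9, 72.1 in M7–8, 306 in M6, 69.1 in M3–5, 11.95 in M2 and 113 in M1, and its difference of 6.77 was the largest of the family. *CG15829* (*Acbp6*) and *CG8629* (*Acbp4*) were reduced, at −2.75 and −2.21, so the 7 genes of the family, all past the limit, had 2 raised and 2 reduced members. The rest of the 10 highest levels belonged to *CG13315* (7921 FPKM), *mt:CoIII* (7089), *fabp* (5920), *Adh* (5213), *Act5C* (4829), *mt:CoII* (4516) and *Dbi* (*Acbp2*, 4502). Of these only *mt:CoII* was called, at 2.15, and it is listed at 0 in M6.

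Lipid genes went in both directions. Of 7 lipases past the limit 2 were raised and 4 reduced, with a median of −4.005. *Lip4* had 312 FPKM in M12–13 and at most 46.6 elsewhere (3.70), while *mag* (magro), a secreted digestive lipase, had 129 FPKM in M12–13, 2149 in M10–11, 4170 in M9, 2404 in M7–8, 148 in M6, 2340 in M3–5, 8280 in M2 and 2777 in M1 (−4.005). *CG6295* had 0.31 FPKM in M12–13 and 11407 in M2 (−5.94). Chosen after their values were seen were *Lsd-1*, a lipid droplet perilipin, with 523 FPKM in M12–13, 683 in M10–11, 816 in M9 and 48.8 in M7–8 (4.15), and *LpR1*, a lipophorin receptor, with 1.93 FPKM in M12–13, 64.8 in M10–11, 59.2 in M9 and 48.6 in M7–8 (−2.26).

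The reduced genes were mainly those of the front of the midgut. Of the 170, 113 were highest in M1, M2 or M3–5, 51 in M6 or M7–8, and 6 in M9 or M10–11, and 82 were below 1 FPKM in M12–13. Of all 6315 genes 1325 were highest in M1, 1367 in M2 and 434 in M3–5. A further 512 were highest in M6, 920 in M7–8, 545 in M9 and 531 in M10–11. M12–13 was the lowest subsection in 545 of all 6315 genes (8.63%) and in 89 of the 170. FPKM declined stepwise over the last 3 subsections in 87 of the 170 (51.2%) and in 1652 of all genes (26.2%). The call selects genes that are low in M12–13, so it favors both of these counts. Lysozymes, which digest bacterial walls, had 5 of 8 genes reduced and none raised, with a median of −5.98. *LysD* had 0.19 FPKM in M12–13, 0.23 in M10–11, 0.35 in M9, 0.92 in M7–8, 4695 in M6, 2132 in M3–5, 4111 in M2 and 13131 in M1 (−6.98), and its near-identical neighbors *LysB*, *LysC* and *LysE* may share its reads. Maltases and amylases had 4 of 10 reduced and 1 raised, *Mal-A2*, with 94.5 FPKM in M12–13 and 41.5 in M3–5 (3.89). *CG5773* with 0.09 FPKM in M12–13 and up to 1887 in M3–5 (−7.83) and *CG5399* with 9.12 FPKM in M12–13 and up to 6334 in M1 (−7.06) complete the 12 most reduced genes, and no role is given for them.

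Only 9 genes lay at least 2 below every other subsection (0.143%). They were *Jon65Aiv*, *Jon65Aiii*, *Jon25Bii*, *yip7*, the tetraspanin gene *Tsp42Ec*, *CG3344* (*hiro*), *CG13323*, *CG4019* (*Eglp4*) and *CG30272* (*MFS1*), of which the last 5 were named after their values were seen. *Tsp42Ec* had 4.01 FPKM in M12–13, 85.4 in M10–11, 69.8 in M9, 839 in M7–8, 3926 in M6, 552 in M3–5, 55.2 in M2 and 289 in M1. The count was not stable, as 31 genes met the rule without M10–11, 16 without M6, 18 with a pseudocount of 0.1 and 25 with the length trend removed.

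A direct comparison with M10–11, the subsection next to it, shows which of these genes changed within the posterior midgut. M12–13 was at least 2 higher in 107 genes (1.69%) and at least 2 lower in 127 genes (2.01%). Of the 185 raised genes 91 were also 2 above M10–11, while 34 of the 170 reduced genes were also 2 below it. The highest differences from M10–11 were those of *CG17475* (11.10), *mt:CoI* (9.79, with M10–11 listed at 0), *CG31269* (8.67), *NAAT1* (8.39), *CG7714* (8.33) and *CG30047* (8.10). *CG7714*, from the list of peritrophic matrix proteins, had 479 FPKM in M12–13, 0.49 in M10–11, 2.75 in M9, 1.09 in M7–8 and 9749 in M3–5.

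On the lower side the most negative differences from M10–11 were those of the P450 gene *Cyp4e3* (−8.60) and of *CG3106* (−5.90), which was chosen after its values were seen. *CG3106* had 16.4 FPKM in M12–13, 1037 in M10–11 and 3288 in M9. Digestive protease genes came next. *CG17571*, a trypsin-like protease, had 205 FPKM in M12–13, 11024 in M10–11, 18120 in M9 and 6560 in M7–8 (−5.74 against M10–11). *CG11911*, chosen after its values were seen, had 496 FPKM in M12–13, 14821 in M10–11 and 17110 in M9 (−4.90). *Jon25Biii* had 93.1 FPKM in M12–13, 3876 in M10–11 and 20568 in M9 (−5.37), and *Jon66Ci* had 756 FPKM in M12–13, 28102 in M10–11 and 33119 in M9 (−5.21). *PGRP-SC1b*, a peptidoglycan amidase with a near-identical copy, had 0.14 FPKM in M12–13 and 31.1 in M10–11 (−4.81). Of the 16 Jonah genes, 14 were at least 2 below M10–11, and the exceptions were *Jon74E* at 1.82 and *Jon25Bi* at −0.89. By list, the median difference from M10–11 was 4.54 for the mannosidases and beta-galactosidases, 2.78 for the metallocarboxypeptidases and 1.01 for amino acid breakdown, and 0.11 for the amino acid transporters. It was −2.26 for the lipases and −4.32 for the Jonah proteases.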

How the data were processed

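Total RNA from 8 dissected midgut subsections, pooled over larvae, was sequenced without strand information, 1 library per subsection. Per the submitters' processing notes, reads were aligned with TopHat2 2.0.6 and summarized with Cuffdiff 2.0.2; per the study's methods this used the FlyBase release 5 genome with corrections for multiply mapped reads and for fragment bias. The authors deposited FPKM values per gene, scaled by the upper quartile, with the lower and upper bounds of a 95% interval. The deposited interval bounds were used as given. The files hold no counts per gene or library, so counting error cannot be computed; the study's methods state the read numbers, which were similar except for a shallower M6.

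The unnamed entry was left out, and 6315 of 14207 entries passed the study's limit on low values. Differences were taken on log2(FPKM + 1), with a pseudocount of 1, and no test was made. The text names the 30 most raised and 12 most reduced genes, the 10 highest in level, list members and members of runs, where raised genes start within 20 kb of the next, besides genes said to be chosen after their values were seen. The members and lists were chosen with earlier results of these data known, and 743 list entries matched by symbol or identifier and 2 did not. *CG13160* was taken out of the metal list after its values were seen. Lengths came from a later annotation joined by identifier, and the trend of the difference with length was fitted by lowess (share of genes 0.3). The code was tested on simulated data, which checks the arithmetic and not the reliability of the calls. Alternatives were another pseudocount, no limit on low values, other scalings, removal of the length trend, of entries with a failed status and of transcript identifiers, and leaving out each other library. Python 3.11.15, numpy 2.4.6, pandas 2.3.3, statsmodels 0.14.6 and matplotlib 3.10.9 were used. Some results are not reported here.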

Additional observations from a re-analysis of the deposited data

How the results depend on the processing

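No paired analysis was possible because each subsection is 1 library. The 4-fold calls rest on FPKM values, and the deposited intervals could not sharpen them. The lower bound of every gene in M12–13 is 0, so a rule that asks for that bound above the upper bound of each other subsection gave 0 raised genes by construction. With each library rescaled to the same summed FPKM, 457 genes were raised, among them all 185, and 126 were reduced, all of them among the 170, while the median difference became 0.84. The genes at least 2 below every other subsection numbered 18 with a pseudocount of 0.1 and 25 with the length trend removed. When M9 and M10–11 alone served as the other subsections, 118 genes were raised, 101 of them shared with the 185, 62 of the 170 reduced genes were still reduced, 95 lay above and 102 below every other, since fewer libraries then had to be passed. Leaving out each other library in turn gave 161 to 222 raised genes, 166 to 195 reduced genes, 64 to 78 above every other subsection, 9 to 31 below every other, and a median difference of −0.10 to 0.01. The 31 came without M10–11 and 16 without M6. None of the 42 most raised or reduced genes changed sign under an alternative. The median difference of all genes did, from −0.03 to 0.84 with rescaling, as did the medians of several lists, among them the Jonah proteases. Of the 42 most raised or reduced genes 34 were past 2 under every alternative, and 8 fell short only against M9 and M10–11 alone, where *CG12057* had 0.81 and *LysD* −0.12. Of the counts of raised and reduced genes per list under alternatives, 927 stayed within the set bounds and 123 moved, and the causes were not tested. An unchanged count of 0 was scored as staying. List medians are not part of these numbers. With no counts in the files, counting error cannot be given.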

Other observations

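Genes of acid and ion transport were called about as often as all genes, of which 2.93% were raised and 2.69% reduced. Of 21 V-ATPase subunit genes past the limit none was raised and 1, *Vha100-4*, was reduced, with 0.03 FPKM in M12–13, 632 in M6 and 44.2 in M3–5 (−2.35). *Vha100-5*, another isoform of the same membrane subunit, had 574 FPKM in M12–13, 443 in M10–11, 34.3 in M6 and 1016 in M3–5 (1.07). Of 19 ion pumps, exchangers and carbonic anhydrases none was raised and 1, the carbonic anhydrase *CAH2*, was reduced, with 0.69 FPKM in M12–13 and 312 in M1 (−3.60). *CG11284* (*CAH3*), another gene of that family, lay just under the call, with 238 FPKM in M12–13, 61.7 in M10–11, 12.6 in M9, 66.1 in M7–8, 26.7 in M6, 147 in M3–5, 158 in M2 and 76.6 in M1 (1.99). All 18 brush border and cytoskeleton genes past the limit stayed within the call, between −1.01 and 1.54, and 6 of them were highest in M12–13.

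Sugar handling and barrier genes had single members that stood apart from their lists. Of 11 sugar transporters past the limit 3 were reduced and 1 was raised, the glucose transporter *Glut1*, with 24.2 FPKM in M12–13, 3.56 in M10–11, 1.98 in M9 and at most 2.06 elsewhere (3.46). Of 15 peritrophic matrix and mucin genes, which include proteins of the chitin-based lining of the gut, 7 were reduced and 3 were raised. *CG32284* had 2512 FPKM in M12–13, 1268 in M10–11, 178 in M9, 18.5 in M7–8, 0.50 in M6, 1.02 in M3–5, 2.64 in M2 and 0.59 in M1 (7.55), and *CG7298* had 1219 FPKM in M12–13, 615 in M10–11, 1238 in M9 and 2703 in M7–8 (2.01). *CG7290* had 1.002 FPKM in M12–13 and 26055 in M3–5 (−6.39). Among 12 genes of peptidoglycan recognition and antimicrobial peptides 2 were reduced and none was raised. *PGRP-LB*, a secreted amidase that degrades peptidoglycan, had 45.7 FPKM in M12–13 and between 83.7 and 154 in the others (−1.52).

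Detoxification families were described by lists taken from the supplement of the study. Over all genes 2.93% were raised, 2.69% were reduced and 10.8% were highest in M12–13. Of 51 P450 genes past the limit 3 were raised and 6 reduced, of 29 glutathione S-transferases 4 were reduced and 0 raised, of 32 ABC transporters 1 was raised and 1 reduced, and of 6 carboxylesterases none was called. The ABC transporters were thus called about as often as all genes. Of 10 listed UDP-glycosyltransferases past the limit 2 were raised and 6 were highest in M12–13. A member of that family outside the list, *CG15661* (*Ugt49C1*), was raised more, with 28.6 FPKM in M12–13, 11.6 in M10–11, 4.23 in M9 and at most 0.86 elsewhere (3.63), and was chosen after its values were seen. *Ugt86Dj* had 72.6 FPKM in M12–13, 39.5 in M10–11, 18.5 in M9 and between 4.93 and 19.5 in the others (2.21), and *Ugt37b1* had 23.8 FPKM in M12–13 and at most 15.5 elsewhere (2.26). The ABC transporter *CG11898* had 1.55 FPKM in M12–13, 58.6 in M10–11, 84.9 in M9, 75.8 in M7–8, 0.71 in M6, 40.8 in M3–5, 51.1 in M2 and 56.6 in M1 (−3.84). The P450 gene *Cyp4ad1* had 471 FPKM in M12–13, 384 in M10–11 and 680 in M9 (3.23), so it was shared by the posterior midgut.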
